A study of Mus musculus with 9 samples.

Results

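The NADPH oxidase of phagocytes is described here through 5 of the genes that encode it, Cybb, Cyba, Ncf1, Ncf4 and Rac2, out of 22136 genes listed in bulk RNA libraries of mouse skin tumors. The genes were taken by symbol, and all 5 were found and passed the filter on low counts, which 12965 genes passed. C57BL/6J mice with an intact immune system carried YUMMER1.7 cells, a mouse melanoma line, under the skin, and treatment began at a tumor volume of 20 to 50 mm3. The 3 groups received an IgG isotype control antibody, an antibody to B7-H3 (a checkpoint protein of the B7 family) or an antibody to PD1 (an inhibitory receptor of T cells), with 3 libraries in each. All groups therefore share 1 tumor line and 1 mouse strain, and differ in the antibody. The labels give no sex, age, dose or day of collection, and they do not say that each library came from its own mouse, so a p-value here reflects just the spread among these libraries, which may be technical. In whole tumor tissue, fewer cells of a type and less RNA per cell cannot be told apart.

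The phagocyte oxidase moves electrons from NADPH across a membrane to oxygen and so makes superoxide, which gives rise to hydrogen peroxide and other microbicidal oxidants. Cybb encodes gp91phox (NOX2), the catalytic subunit, and Cyba encodes p22phox, the membrane partner that stabilises it. At rest, the organiser p47phox (Ncf1) and p40phox (Ncf4), which binds a phosphoinositide on phagosomes, stay in the cytosol. Activation brings them to the membrane together with a Rac GTPase, for which Rac2 is the form of blood cells and Rac1 the widely expressed form. Neutrophils, monocytes and macrophages hold most of the enzyme, and in tumors macrophages and other myeloid cells can carry it. Loss of a core subunit causes chronic granulomatous disease.

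The deposited annotation matches GENCODE M21 on the GRCm38 build, and the loci are as follows. Cybb lies on the minus strand at chrX:9435252-9487771 and Cyba on the minus strand at chr8:122424776-122432930. Ncf1 lies on the minus strand at chr5:134220053-134229625. Ncf4, on the plus strand at chr15:78244801-78262580, and Rac2, on the minus strand at chr15:78559167-78572783, are on the same chromosome with 296586 bases between them. All 5 are protein-coding genes, and the listed transcript lengths are coding lengths. The RefSeq start used for Cybb lies inside the GENCODE span of the gene. RefSeq promoter windows (build GRCm38.p6) were matched for 3 of the 5 genes, Cybb, Cyba and Ncf1. Promoters of Ncf4 and Rac2 were not used here. For description only, the 250 bases before the RefSeq start are shown in the gene's own direction. Each match to GAAA, any 2 bases and GAAA, or its reverse complement, is in capitals. This paired GAAA repeat is the core of the element to which interferon regulatory factors bind.

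Cybb, chrX:9469325-9469574, minus strand: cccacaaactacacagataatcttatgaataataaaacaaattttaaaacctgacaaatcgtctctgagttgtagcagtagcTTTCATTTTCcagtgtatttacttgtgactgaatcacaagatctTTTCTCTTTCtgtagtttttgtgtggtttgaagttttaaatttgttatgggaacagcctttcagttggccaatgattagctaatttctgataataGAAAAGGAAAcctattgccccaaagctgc
Cyba, chr8:122432941-122433190, minus strand: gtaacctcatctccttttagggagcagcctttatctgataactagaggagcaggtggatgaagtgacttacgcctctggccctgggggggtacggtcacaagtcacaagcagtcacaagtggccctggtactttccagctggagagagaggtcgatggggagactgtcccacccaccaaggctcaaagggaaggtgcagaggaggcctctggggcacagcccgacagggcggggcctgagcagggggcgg
Ncf1, chr5:134229626-134229875, minus strand: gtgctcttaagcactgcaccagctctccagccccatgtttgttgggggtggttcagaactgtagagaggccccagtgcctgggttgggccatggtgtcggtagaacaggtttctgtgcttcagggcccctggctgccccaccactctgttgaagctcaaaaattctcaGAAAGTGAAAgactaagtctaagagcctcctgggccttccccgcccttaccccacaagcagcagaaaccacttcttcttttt

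The Cybb window held 3 matches, at -168 to -159, at -124 to -115 and at -29 to -20 from the start. The Ncf1 window held 1 match, at -82 to -73, and the Cyba window held none. Of 32817 promoters, 2.968% held at least 1 match in the same 250 bases. In the full 300 bases, which run 50 bases past the start, 3 further motifs were searched on both strands. The PU.1 core GAGGAA was found in Cybb at 10 to 15 (28.272% of all promoters hold it), and the joint ETS and IRF element (GGAA, any 2 bases, then GAAA) was found in Cybb at 4 to 13 (2.718% of all), where the pair overlap each other. The STAT element TTCNNNGAA was found in Ncf1 at -88 to -80 (8.294% of all). It overlaps the Ncf1 match to the paired GAAA repeat. These are matches of letters only, and no binding was measured.

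Total estimated reads were 13624172 to 27288766 in the IgG group, 10105153 to 15447583 under anti-B7-H3 and 8627930 to 11256181 under anti-PD1. A set of 12 genes that share the sequence of a satellite repeat took 87.0% to 92.12% of the reads in the IgG libraries, 5.24% to 28.21% under anti-B7-H3 and 14.63% to 38.18% under anti-PD1. Reads outside that set therefore came to between 1218985 and 3533214 in the IgG group and between 5320073 and 14404557 in the other groups. Over the 1509 olfactory and vomeronasal receptor genes, which tumor tissue is not known to use, CPM (counts per 1000000 reads) outside the satellite set were 2254, 767 and 4969 in IgG replicates 1, 2 and 3, against 40.4 to 280 in the antibody libraries. IgG replicate 3 thus had the fewest usable reads and the most receptor signal. Without it, log2 fold changes for anti-B7-H3 against IgG were 1.52 (Cybb), 0.67 (Cyba), 0.30 (Ncf1), 1.21 (Ncf4) and 0.40 (Rac2), and for anti-PD1 they were 0.80, 0.57, 0.02, 0.93 and 0.04, with no call by edgeR and no turn of direction. Among the defining markers of melanocytes, Tyr and Mlana had 0 reads in all anti-B7-H3 libraries and Tyrp1 had 0 in all anti-PD1 libraries, so these tissues are called tumors by their label. Summed over 9 melanocyte genes, levels were 12.7 to 34.5 CPM with IgG, 4.6 to 5.68 under anti-B7-H3 and 4.67 to 9.69 under anti-PD1. Only 2 of the 9 genes had enough reads to test. The IgG sums, 21.8, 12.7 and 34.5 CPM in replicates 1 to 3, stood in the same order as the receptor signal. The part of background in them was not tested.

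Mean levels of all 5 oxidase genes were higher in both antibody groups than with IgG, but none passed the test. With the receptor signal of each library as a covariate, 4 of 5 turned negative for anti-B7-H3 against IgG and 5 of 5 for anti-PD1 against IgG, with no call. That signal was 8.239 to 11.44 log2 CPM in the IgG libraries and 3.899 to 6.753 in the antibody libraries. The fit can therefore hardly tell it from the group, and the SE of Cybb for anti-B7-H3 against IgG rose from 0.43 to 0.84. The summed level of the 5 genes was 50.0, 44.4 and 24.4 CPM in the IgG libraries, 61.4, 73.1 and 116 under anti-B7-H3 and 49.4, 94.1 and 52.5 under anti-PD1. CPM here are scaled by the trimmed mean of M values (TMM), which limits the weight of the satellite reads. All 3 anti-B7-H3 sums lay above the highest IgG sum, while anti-PD1 replicate 1 lay just under it. In edgeR's quasi-likelihood test, 0 of 5 genes had an adjusted p under 0.05 for anti-B7-H3 against IgG (0.555% of all tested genes did), 0 of 5 for anti-PD1 against IgG (0.393%) and 0 of 5 for anti-B7-H3 against anti-PD1 (0.0%). These shares count both directions. Of the called genes, 1 was higher and 71 lower for anti-B7-H3 against IgG, and 1 higher and 50 lower for anti-PD1. At an unadjusted p under 0.05, 3 of 5 genes were higher under anti-B7-H3 than with IgG (3.58% of all genes), 1 of 5 under anti-PD1 (7.67%) and 0 of 5 between the antibodies (3.92%). DESeq2 called 1 of the 5, Cybb, for anti-B7-H3 against IgG and 0 in each of the other comparisons.

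Without regard to a test, the 3 anti-B7-H3 libraries all lay above the 3 IgG libraries for 4 of 5 genes, against 7.72% of all genes. For anti-PD1 this held for 2 of 5 genes, Cybb and Ncf4, against 11.1% of all genes. Between the antibodies it held for 0 of 5, against 7.55%. The median log2 fold change of the 5 genes was 0.82 for anti-B7-H3 against IgG and 0.72 for anti-PD1, where the medians of all genes were 0.03 and 0.01. Between the antibodies the median was 0.29. The value was positive for 5 of 5 genes in each comparison, against 53.3%, 50.5% and 51.1% of all genes. The comparisons with IgG share the same 3 control libraries. A single test over all 3 groups gave edgeR adjusted p = 0.2 for Cybb, 0.266 for Ncf4, 0.411 for Cyba, 0.581 for Rac2 and 0.702 for Ncf1.

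**Figure D1:**
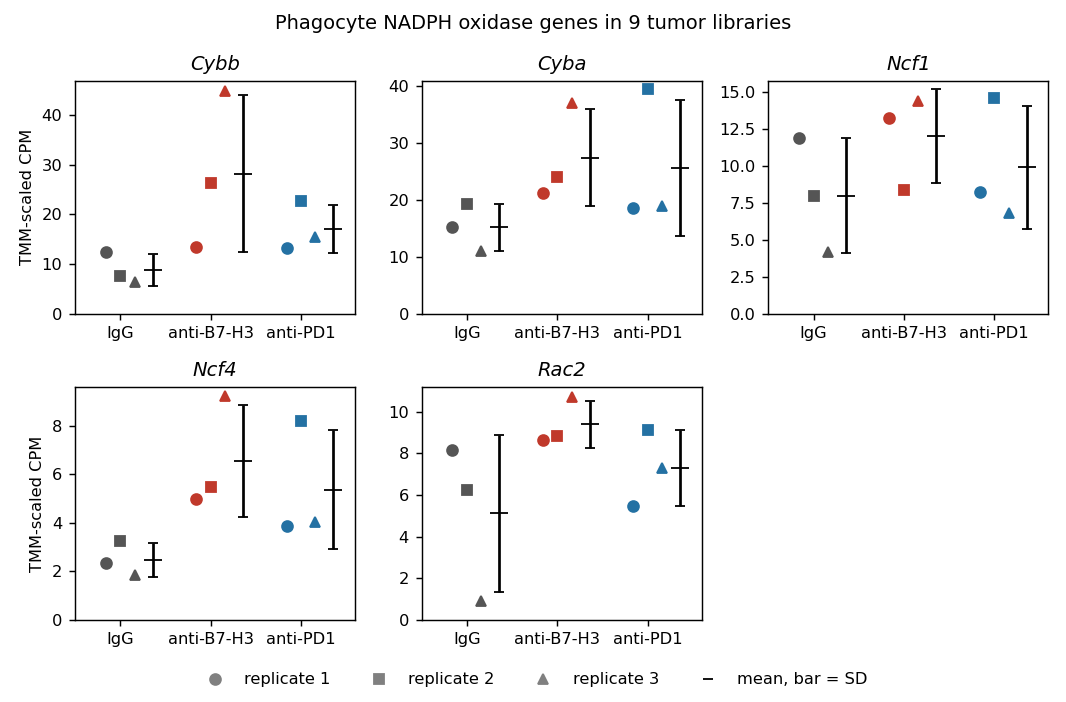
TMM-scaled CPM (vertical axis, from 0, its own scale in each panel) of the 5 oxidase genes in each of the 9 libraries, by group, with the symbol showing the replicate and the black bar the mean and SD of 3 libraries. The third anti-B7-H3 library (Cybb 44.9) and the second of anti-PD1 (Cyba 39.5) stand highest, and IgG replicate 3 (Rac2 0.92) stands lowest.

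Of the membrane subunits, Cybb showed the widest range. Its level was 12.5, 7.6 and 6.44 CPM in IgG replicates 1 to 3, 13.4, 26.3 and 44.9 under anti-B7-H3 and 13.3, 22.6 and 15.4 under anti-PD1. Every antibody library lay above every IgG library, but by a small margin, since the first replicates of the 3 groups lay between 12.5 and 13.4. The means were 8.83 ± 3.19 (SD, n = 3), 28.2 ± 15.9 and 17.1 ± 4.91 CPM. The log2 fold change was 1.65 ± 0.43 (SE) for anti-B7-H3 against IgG, with a 95% interval of 0.69 to 2.61 (edgeR adjusted p = 0.141). For anti-PD1 against IgG it was 0.93 ± 0.43 (interval -0.03 to 1.89, edgeR adjusted p = 0.285), and between the antibodies it was 0.72 ± 0.40 (-0.15 to 1.60, edgeR adjusted p = 0.766). Without anti-B7-H3 replicate 1 the first of these was 2.00 with an edgeR adjusted p of 0.029, and without the filter on low counts it was 1.89 with 0.048. With the receptor signal of each library as a covariate it was -0.18 ± 0.84, and for anti-PD1 it was -0.50 ± 0.69.

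Cyba, the partner of gp91phox, was measured at 15.2, 19.3 and 11.0 CPM with IgG, 21.2, 24.0 and 37.1 under anti-B7-H3 and 18.6, 39.5 and 18.9 under anti-PD1. The anti-B7-H3 libraries lay above all IgG libraries, and 2 of 3 anti-PD1 libraries lay within the IgG range. Means were 15.2 ± 4.14, 27.4 ± 8.46 and 25.7 ± 12.0 CPM (SD, n = 3). The log2 fold change was 0.82 ± 0.34 for anti-B7-H3 against IgG (95% interval 0.06 to 1.57, edgeR adjusted p = 0.412) and 0.72 ± 0.34 for anti-PD1 against IgG (-0.03 to 1.48, edgeR adjusted p = 0.292). Between the antibodies it was 0.10, with an interval of -0.62 to 0.81, and it was -0.18 without anti-B7-H3 replicate 3 and -0.10 or -0.08 when replicate 1 or 3 of anti-PD1 was left out. With the receptor covariate the values against IgG were -0.67 ± 0.55 and -0.50 ± 0.48. Per kilobase of effective length, the ratio of Cyba to Cybb was 4.88, 10.1 and 6.93 in the IgG libraries (the last over 14 Cybb reads), 5.99, 3.44 and 3.11 under anti-B7-H3 and 5.28, 6.61 and 4.54 under anti-PD1. The lowest ratios were thus in anti-B7-H3 replicates 2 and 3, and the groups overlapped.

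Among the cytosolic subunits, Ncf4 had the lowest level and the larger fold. It was measured at 2.34, 3.24 and 1.84 CPM with IgG, 4.96, 5.48 and 9.21 under anti-B7-H3 and 3.86, 8.19 and 4.04 under anti-PD1. No antibody library lay within the IgG range. The IgG values rest on few reads, 12, 29 and 4, and the last of these has a 95% Poisson interval of 1.09 to 10.2 reads, which covers counting error only. The log2 fold change was 1.32 ± 0.40 for anti-B7-H3 against IgG (interval 0.44 to 2.20, edgeR adjusted p = 0.196) and 1.03 ± 0.40 for anti-PD1 against IgG (0.15 to 1.92, edgeR adjusted p = 0.208). Between the antibodies it was 0.29 (-0.46 to 1.03), and -0.04 without anti-B7-H3 replicate 3. Without the filter on low counts, Ncf4 passed for anti-B7-H3 against IgG, at 1.53 (edgeR adjusted p = 0.030), and with the receptor covariate both values against IgG were -0.20.

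Ncf1, the organiser subunit, showed overlapping groups in every comparison. Its level was 11.9, 7.93 and 4.14 CPM with IgG, 13.2, 8.39 and 14.4 under anti-B7-H3 and 8.23, 14.6 and 6.83 under anti-PD1. The log2 fold change was 0.52 ± 0.38 for anti-B7-H3 against IgG (interval -0.31 to 1.34, edgeR adjusted p = 0.681), 0.24 ± 0.38 for anti-PD1 against IgG (-0.59 to 1.07, edgeR adjusted p = 0.773) and 0.28 ± 0.35 between the antibodies (-0.49 to 1.04). The anti-PD1 value was -0.15 without anti-PD1 replicate 2 and -0.18 with the receptor covariate. Ncf1 is uncertain for another reason: its coding exons lie over exons of Gtf2ird2 on the opposite strand, for 282 of the 1170 coding bases of the transcript that took 95.2% of its reads. Strand-aware counting: not given in the sources used here. Therefore reads of the 2 genes over that stretch cannot be told apart. The annotation labels that transcript for nonsense-mediated decay, and its coding sequence is identical to that of a protein-coding Ncf1 transcript.

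Rac2, the GTPase, was measured at 8.18, 6.26 and 0.92 CPM with IgG, 8.65, 8.84 and 10.7 under anti-B7-H3 and 5.46, 9.14 and 7.30 under anti-PD1. The anti-B7-H3 libraries lay above the IgG libraries, the nearest by 8.65 against 8.18. The low IgG value stands on 2 reads, with a Poisson interval of 0.242 to 7.22 reads. The log2 fold change was 0.73 ± 0.40 for anti-B7-H3 against IgG (95% interval -0.15 to 1.61, edgeR adjusted p = 0.572) and 0.37 ± 0.40 for anti-PD1 against IgG (-0.52 to 1.26, edgeR adjusted p = 0.664). Leaving out 1 library at a time, the anti-PD1 value ran from 0.04 to 0.74. With the receptor covariate the values against IgG were -0.47 ± 0.74 and -0.61 ± 0.65. Between the antibodies the value was 0.36 (-0.44 to 1.16).

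**Figure D2:**
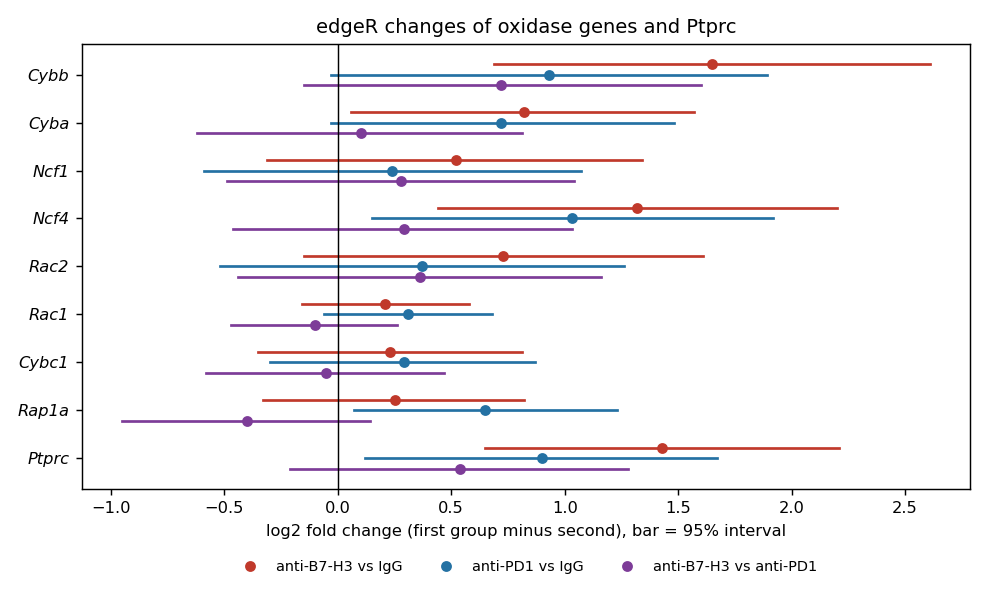
Log2 fold changes from edgeR (horizontal axis, points) with 95% intervals (lines) for the 5 genes, 3 partners of the same complex and Ptprc, coloured by comparison. For anti-B7-H3 against IgG the intervals of Cybb (0.69 to 2.61), Cyba, Ncf4 and Ptprc lie above 0, while none of these genes passes the adjusted threshold.

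The background measured by the receptor genes was close to the signal in 1 library. If each oxidase gene drew reads at the rate of the receptor genes, per kilobase, this would give 94.3% of the Ncf4 reads in IgG replicate 3, 86.6% of Rac2, 52.0% of Ncf1, 50.0% of Cybb and 7.21% of Cyba. In the 6 antibody libraries the same share was at most 1.75% for any of the 5 genes. In IgG replicate 1 it was 25.1% for Ncf4 and 1.79% to 8.71% for the others. The 4 Ncf4 reads and 2 Rac2 reads of IgG replicate 3 therefore cannot be told apart from this background. After removal of reads at that rate from all libraries, no oxidase gene was called in any comparison and no direction turned.

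**Figure D3:**
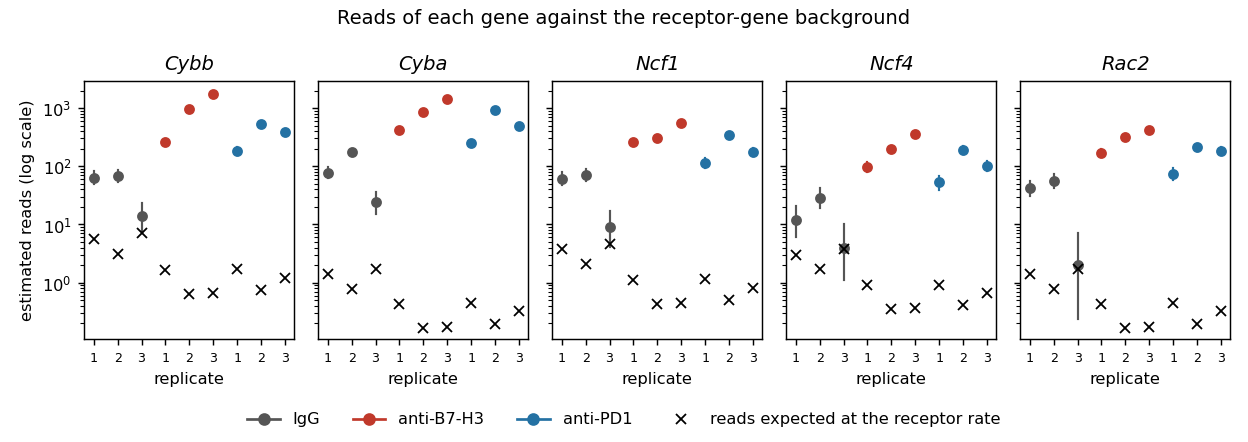
Estimated reads (vertical axis, log scale) of each of the 5 genes in the 9 libraries, with 95% Poisson intervals (lines) and, as crosses, the reads expected at the per-kilobase rate of the receptor genes. In IgG replicate 3 the Ncf4 point (4 reads) and the Rac2 point (2 reads) lie on their crosses, and in the antibody libraries the points lie far above them.

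Compared per kilobase of the effective length of the longest listed transcript, the ends of the order were stable. Cyba was first in 9 of 9 libraries, and Ncf4 was last in the 8 libraries other than IgG replicate 3, where the ranks of Ncf4 and Rac2 rest on 4 and 2 reads at the background level and are not read. Mean levels of Cyba were 40.1 ± 10.4 CPM per kilobase with IgG, 67.1 ± 20.6 under anti-B7-H3 and 62.5 ± 30.0 under anti-PD1 (SD, n = 3), and those of Ncf4 were 3.02 ± 0.846, 7.71 ± 2.72 and 6.31 ± 2.92. Between them lay Rac2 (13.5 ± 9.92, 23.0 ± 2.78 and 17.7 ± 4.57), Cybb (5.85 ± 2.11, 18.3 ± 10.3 and 11.1 ± 3.21) and Ncf1 (7.88 ± 3.81, 11.5 ± 3.05 and 9.45 ± 3.99). The ranges of these 3 genes overlapped in every group, except that Rac2 lay above Ncf1 in all 3 anti-B7-H3 libraries. Apart from IgG replicate 3, Rac2 was second in 7 of 8 libraries, and Cybb and Ncf1 followed in either order. By the deposited TPM, Cyba was first in 4 of 9 libraries and Rac2 in the other 5. A listed transcript of Rac2 of 111 bases held 8.01% of its reads over all libraries, and TPM divides reads by effective length. It had reads in each of those 5, but also in anti-B7-H3 replicates 1 and 3 and anti-PD1 replicate 2, where Cyba was first. Its part in the order was not tested.

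Partners of the complex were measured as well. Rac1, the general Rac GTPase, stood at 53.4 ± 5.37, 62.1 ± 8.35 and 66.6 ± 1.52 CPM in the 3 groups, with log2 fold changes of 0.21 and 0.31 against IgG. Per kilobase, Rac1 exceeded Rac2 by 5.35 to 11.0 times in the antibody libraries and by 5.89 and 8.04 times in IgG replicates 1 and 2, and no ratio is given for replicate 3 with its 2 Rac2 reads. Cybc1, the chaperone needed for gp91phox to accumulate, was at 4.08, 4.93 and 5.13 CPM, and Rap1a, a small GTPase found with the membrane subunits, at 15.6, 17.9 and 23.7. Rap1a had an unadjusted edgeR p of 0.031 for anti-PD1 against IgG (log2 fold change 0.65 ± 0.26, adjusted p = 0.222), with overlapping groups, and it shares 66.284% of its words with pseudogenes. None of these 3 genes passed the test in any comparison. Of 9 genes for the other NOX and DUOX oxidases and their partners, only Nox4, Noxo1 and Duox2 had enough reads to test, with means of at most 1.92 CPM in any group.

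Genes that regulate the oxidase were examined as a list of 30 kinases, exchange factors, adhesion receptors and other regulators, all of which were tested. The list mixes activators with genes that restrain Rac, so its signs do not measure activation. Some of its genes, such as Itgb2, also stand in the pan-leukocyte list below. None passed the adjusted threshold in any comparison. For anti-B7-H3 against IgG, 28 of 30 had a positive log2 fold change, with a median of 0.40, where 53.3% of all genes were positive. For anti-PD1 the count was 21 of 30 with a median of 0.28, against 50.5%. The smallest p-values for anti-B7-H3 belonged to Lyn, a Src-family kinase (1.03 ± 0.27, edgeR adjusted p = 0.137), Btk, a Tec-family kinase (1.24 ± 0.34, 0.153), Prkcd, a protein kinase C that phosphorylates p47phox (0.98 ± 0.28, 0.165), and Nckap1l, a subunit of the actin-regulating WAVE complex of blood cells (0.92 ± 0.31, 0.27). Itgam and Itgb2, which form the integrin Mac-1, had 1.05 ± 0.45 and 1.17 ± 0.41 for anti-B7-H3 and 0.76 ± 0.45 and 0.29 ± 0.41 for anti-PD1.

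The list of 21 genes that remove or buffer oxidants also had no called gene. All 21 had a positive log2 fold change for anti-B7-H3 against IgG, with a median of 0.36, where 53.3% of all genes were positive. For anti-PD1 the count was 14 of 21, with a median of 0.28, against 50.5%. Sod2, the mitochondrial superoxide dismutase, had the smallest p for anti-B7-H3 (0.56 ± 0.23, edgeR adjusted p = 0.385), followed by Prdx1, a peroxiredoxin (0.69 ± 0.30, 0.434). For anti-PD1 the smallest were Prdx3, the mitochondrial peroxiredoxin (0.89 ± 0.28, edgeR adjusted p = 0.145), and Gsr, glutathione reductase, in the other direction (-0.51 ± 0.19, 0.195). Gsr levels were 28.5 CPM with IgG, 30.6 under anti-B7-H3 and 20.2 under anti-PD1. Gsr had an unadjusted edgeR p of 0.0072 between the antibodies (log2 fold change 0.60 ± 0.18, adjusted p = 0.749).

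Of 12 other microbicidal genes of phagocytes, 6 were tested and none was called. For anti-B7-H3 against IgG 5 of 6 were positive (median 1.33), against 53.3% of all genes. For anti-PD1 2 of 6 were (median -0.36), against 50.5%. Mpeg1, a pore-forming protein of macrophages, had 1.34 ± 0.41 for anti-B7-H3 against IgG (edgeR adjusted p = 0.21) and 0.98 ± 0.40 for anti-PD1 (0.236). Lyz2, lysozyme, which also stands in the macrophage list, had 1.75 ± 0.72 (edgeR adjusted p = 0.436) and 2.02 ± 0.73 (0.203). Ltf, lactoferrin, and Slc11a1, a metal transporter of phagosomes, had -1.55 ± 1.02 and -0.31 ± 0.49 for anti-PD1. The neutrophil granule gene Elane had 0 reads in the anti-B7-H3 libraries and Ctsg had 0 in the anti-PD1 libraries. Transcription factors of myeloid cells did not share a direction: 4 of 8 tested were positive for anti-B7-H3 (median 0.03) and 1 of 8 for anti-PD1 (median -0.23). Spi1, which encodes PU.1, a regulator of Cybb and other myeloid genes, was at 9.35, 11.7 and 8.19 CPM in the 3 groups. Irf8 was at 11.0, 16.7 and 9.82 CPM, with 0.76 ± 0.27 between the antibodies (edgeR adjusted p = 0.749).

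Macrophage and monocyte markers were mostly positive against IgG, and none was called. Of all tested genes, 53.3% were positive for anti-B7-H3 and 50.5% for anti-PD1. Of 15 tested macrophage markers, 14 were positive for anti-B7-H3 against IgG (median log2 fold change 0.78) and 13 for anti-PD1 (0.58). Their summed level ran from 538 to 1110 CPM with IgG, from 1030 to 1640 under anti-B7-H3 and from 838 to 2150 under anti-PD1. Adgre1, which encodes F4/80, had means of 19.4, 54.8 and 49.5 CPM in the 3 groups and Csf1r, the receptor for macrophage colony-stimulating factor, 57.2, 107 and 110 CPM, with both antibody groups above all IgG libraries. Of the 15 macrophage markers, 7 lay above all IgG libraries without overlap for anti-B7-H3, against 7.72% of all genes. For anti-PD1 this held for 4 of 15, against 11.1%, and Cd68 was not among these 4. Of 8 monocyte markers, 7 were positive for anti-B7-H3 (median 1.14) and 6 for anti-PD1 (0.70). Their sum, 3730 to 5370 CPM with IgG, 3330 to 4810 under anti-B7-H3 and 1760 to 5380 under anti-PD1, did not separate the groups. The mean sums were 4680, 4050 and 3880 CPM, of which Fn1 alone had 4660, 4000 and 3810. The sum therefore follows Fn1 and says little about the other markers.

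The neutrophil markers differed widely in level. Ly6g had at most 4 reads in any library and S100a8 at most 11, whereas Mmp9, a gelatinase that other cells also make, was at 59.1, 58.6 and 49.5 CPM in the 3 groups. All 14 summed to 63.0 to 90.1 CPM with IgG, 52.0 to 76.2 under anti-B7-H3 and 42.3 to 75.3 under anti-PD1, and 4 of 14 neutrophil markers were tested, with medians of -0.52 for anti-B7-H3 and -0.97 for anti-PD1. Csf3r, the receptor for granulocyte colony-stimulating factor, was at 5.61, 5.56 and 4.08 CPM in the 3 groups. T cell markers, which would follow lymphocytes and not phagocytes, had medians of 0.54 and -0.12, and Cd3e was at 1.56, 1.71 and 0.961 CPM. Only 1 of 8 B cell markers was tested. Skeletal muscle genes summed to 110 to 172 CPM with IgG, to 774, 24.9 and 3480 under anti-B7-H3 and to 237, 1640 and 1260 under anti-PD1. Replicate 3 of anti-B7-H3 and replicate 2 of anti-PD1, where the oxidase genes were highest, were also the highest of their groups in muscle genes and in macrophage markers, and the part of either in the result was not tested. Without these 2 libraries, a choice made after seeing the data, the log2 fold changes for anti-B7-H3 against IgG were 1.15 (Cybb), 0.53 (Cyba), 0.36 (Ncf1), 0.99 (Ncf4) and 0.62 (Rac2). Those for anti-PD1 were 0.68, 0.26, -0.16, 0.59 and 0.17, with no call by edgeR in either comparison.

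Genes of all leukocytes showed values of similar size. All 10 pan-leukocyte genes were positive for both antibodies, with medians of 1.13 and 0.67, where 53.3% and 50.5% of all genes were positive. Their summed level ran from 162 to 235 CPM with IgG, from 248 to 507 under anti-B7-H3 and from 226 to 417 under anti-PD1. Ptprc, which encodes CD45, had 1.43 ± 0.35 on the log2 scale for anti-B7-H3 (edgeR adjusted p = 0.11) and 0.90 ± 0.35 for anti-PD1 (0.21). As a share of the Ptprc level, Cybb stood at 39.3%, 34.7% and 37.8% with IgG, 36.1%, 40.1% and 49.9% under anti-B7-H3 and 39.7%, 37.3% and 39.6% under anti-PD1. In IgG replicate 3, background at the receptor rate would give 50.0% of the Cybb reads and 46.2% of the Ptprc reads, so its share says little about either gene. Of the 8 other libraries, 7 lay between 34.7% and 40.1%, and the groups overlapped. Ncf1 ran differently, at 24.3% to 37.4%, 12.8% to 35.7% and 17.5% to 24.6% of Ptprc. The 24.3% is IgG replicate 3, where background at the receptor rate would give 52.0% of the Ncf1 reads. IgG replicates 1 and 2 stood at 37.4% and 36.2%, just above the highest antibody library at 35.7%. Summed over the 5 genes, the oxidase stood at 15.1% to 25.1% of the pan-leukocyte sum with IgG, 20.1% to 24.7% under anti-B7-H3 and 20.7% to 22.6% under anti-PD1, again overlapping. Against the macrophage markers the same sum was 4.51% to 4.53% with IgG, 4.83% to 7.12% under anti-B7-H3 and 4.38% to 6.27% under anti-PD1.

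**Figure D4:**
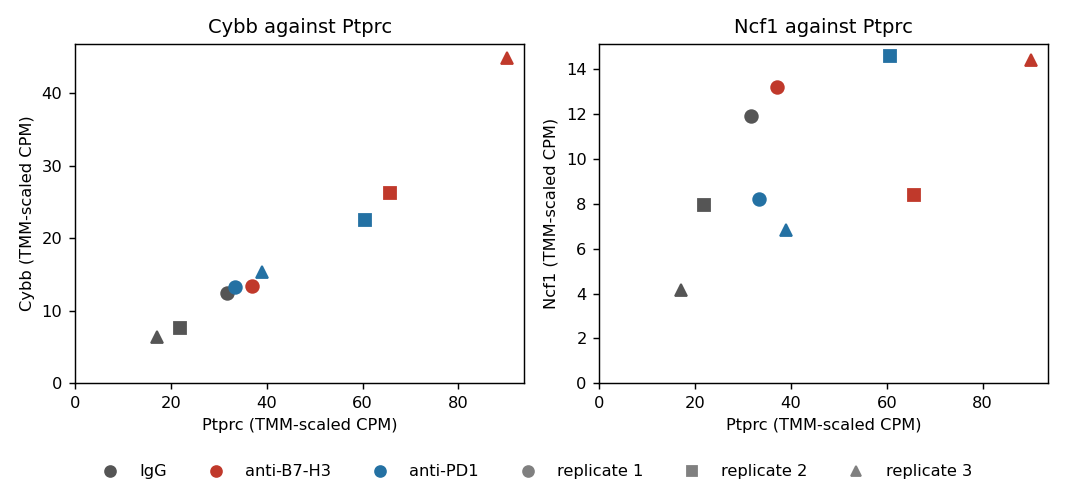
Cybb (left) and Ncf1 (right) against Ptprc, both axes in TMM-scaled CPM from 0, 1 point for each of the 9 libraries, with colour for group and symbol for replicate. Cybb lies near 1 line through all groups, at 34.7% to 49.9% of Ptprc, and Ncf1 is scattered, at 12.8% to 37.4%.

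Across the 9 libraries the 5 genes varied together. Pearson's r of log2 CPM ran from 0.66 to 0.97 over the 10 pairs, with a median of 0.75, as a description of libraries that share groups and depth. These values include IgG replicate 3, where Ncf4 and Rac2 were at the background level. They were not recomputed without it, and r for pairs of other genes was not taken for comparison. In the mean of the 5 standardized levels, IgG replicate 3 was lowest at -1.82 and replicate 3 of anti-B7-H3 (1.29) and replicate 2 of anti-PD1 (1.01) were highest. IgG replicate 3 was the lowest library for each of the 5 genes. The highest was anti-B7-H3 replicate 3 for Cybb, Ncf4 and Rac2 and anti-PD1 replicate 2 for Cyba and Ncf1.

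The 10 genes most like that mean profile, by Pearson's r over 9 libraries among genes with a mean of at least 1 log2 CPM, were Nfs1 (0.99), Adgre1 (0.981), Coro1a (0.98), Tyrobp, Sirpa, Gmfg, Il4ra, Cd52, Inpp5d and Lcp1 (0.974). Without IgG replicate 3 and anti-B7-H3 replicate 3, their r ran from 0.91 to 0.977. Tyrobp is the adaptor DAP12 of myeloid receptors, Sirpa a receptor of macrophages for CD47, and Coro1a and Lcp1 actin-binding proteins of leukocytes, whereas Nfs1 is a mitochondrial cysteine desulfurase. The gene nearest to Cybb was Ptprc (0.992), followed by Lyn (0.972) and Ctss (0.97), which encodes cathepsin S. Nearest to Cyba were Ndufb6, Gins1 and Ncf4, and nearest to Ncf4 were Cyba, Mrps16 and Dnaja3. Ncf1 was nearest to Edem2, C1qa and Spon2, and Rac2 to Il21r (0.992), Grn (0.991) and Slfn2 (0.987). The standardized Rac2 level was -2.56 in IgG replicate 3, on 2 reads at the background level, and -0.19 to 0.74 elsewhere. Its r values therefore rest largely on that library. The r values of single genes were not recomputed without it.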

How the data were processed

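The 9 tumor RNA libraries fall into 3 groups of 3 taken from the sample labels. Total RNA was depleted of ribosomal RNA, per the labels' protocols. Per the file headers, each deposited table lists transcripts with estimated counts, TPM scaled by effective length, and the lengths. FastQC 0.11.8 and GRCm38 come from the submitters' processing notes, with the software that made the counts not given in the sources used here. Of 58083 listed transcripts, 57409 matched GENCODE M21, and the others held 0.1054% to 0.369% of reads. The deposited estimated counts were summed per gene and rounded.

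Tests used edgeR 4.0.16 in R 4.3.3 (TMM, filterByExpr, 1 robust quasi-likelihood fit to all 9 libraries with group as its term), and p-values were adjusted by Benjamini-Hochberg over 12965 genes at 0.05. The biological coefficient of variation was 28.4%. limma 3.58.1 and DESeq2 1.42.0 served as alternatives. Satellite genes share over 30% of 15-base words with Gm10801. Levels per kilobase use the effective length of the longest listed transcript; expected background is the receptor genes' reads per kilobase times that length. The IgG libraries hold 2 to 173 reads for a member.

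The members and gene lists were chosen with earlier results of these data known. Named genes were all members and partners, at most 4 genes of each other list by smallest p, preset markers, and the genes most like the members by correlation. One item that falls under this rule is not reported here.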

Additional observations from a re-analysis of the deposited data

How the results depend on the processing

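The 5 genes and 3 comparisons give 15 results, each recomputed under 24 alternatives: of 360 values, 328 kept direction and side of the threshold, 14 newly passed it and 18 turned direction. Dividing by library totals moved the median of all genes by 3.37 (anti-B7-H3 against IgG), 3.15 (anti-PD1 against IgG) and 0.20 (between the antibodies) on the log2 scale and called 12529, 12333 and 23 genes. Under it, Cybb stood at 5.10 and 4.15 against IgG, Cyba at 4.13 and 3.85, Ncf1 at 3.87 and 3.43, Ncf4 at 4.62 and 4.15 and Rac2 at 4.06 and 3.54. For anti-B7-H3 against IgG, Cybb also passed with DESeq2 (1.64) and without the filter (1.89), as did Ncf4 without the filter (1.53).

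With receptor signal as a covariate, values for anti-B7-H3 and anti-PD1 against IgG were -0.18 and -0.50 (Cybb), -0.67 and -0.50 (Cyba), -0.20 and -0.20 (Ncf4) and -0.47 and -0.61 (Rac2), and -0.18 for Ncf1 under anti-PD1; between the antibodies they were -0.17 (Cyba) and -0.00 (Ncf4). The covariate is itself far higher in the IgG libraries. Ncf1 for anti-PD1 was -0.28 with quality weights and -0.16 without replicate 3 of anti-B7-H3 and replicate 2 of anti-PD1, an alternative chosen after seeing the data, as was removal of background. The causes were not tested.

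Leaving out 1 library at a time gave these ranges for anti-B7-H3 against IgG: Cybb 1.15 to 2.00, Cyba 0.54 to 1.05, Ncf1 0.30 to 0.88, Ncf4 0.99 to 1.62 and Rac2 0.40 to 1.10. For anti-PD1 against IgG they were 0.68 to 1.27, 0.27 to 0.96, -0.15 to 0.61, 0.60 to 1.33 and 0.04 to 0.74 in the same order, and between the antibodies 0.22 to 1.06, -0.18 to 0.55, 0.07 to 0.68, -0.04 to 0.73 and 0.19 to 0.55.

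Over all genes, edgeR called 72, 51 and 0 genes in the 3 comparisons (840 at an unadjusted p under 0.05 in the last). Only 1 gene was called higher in each comparison with IgG. For anti-B7-H3 and anti-PD1 against IgG the counts were 495 and 814 with DESeq2 (20 between the antibodies), 362 and 425 with quality weights, 1097 and 731 without a filter (4 between the antibodies), 10 and 16 at 1 CPM, 20 and 88 with only the compared libraries, 0 and 7 with the covariate, 10 and 9 after background removal, 118 and 19 with totals without satellite genes, and 14 and 12 without both high libraries. They were 116 for anti-B7-H3 without robust estimation and 80 for anti-PD1 with limma-voom. Leave-one-out counts ran from 8 to 441 and from 9 to 432. By TPM, Cyba was first in 4 libraries. With the replicate number as a block, anti-B7-H3 and anti-PD1 against IgG had 98 and 124 called genes and no oxidase gene. As deviations from their group means, same-numbered libraries correlated at -0.324 to 0.18, with 3 of 9 pairs over 0.1. Differently numbered pairs ran from -0.434 to 0.522. The labels state no pairing, and these values cannot show whether same-numbered libraries share a batch.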
